A study of Mus musculus with 45 samples.

Results

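The genes described here make, take up and store fatty acids in adipocytes. They were chosen by name from the pathway and its regulators, and not by their measured values. Of 43 genes, 42 were measured by 103 of the 45037 probe sets on the array. Acsl1 has no probe set assigned to it alone in the annotation used and was not analysed here. The study itself lists Acsl1 among its genes that differed between DW16 and DC16 mice (groups named below). Fat cells came from the parametrial and periovarian depots of 45 female C57BL/6 mice, 1 array per mouse. D mice (IR+/- IRS1+/- ApoE-/-, heterozygous for the insulin receptor and its substrate and without apolipoprotein E) formed the groups DC8 (n = 7), DW8 (n = 5), DC16 (n = 5) and DW16 (n = 9). E mice (ApoE-/-) formed EC16 with 5 mice, EW8 with 6 and EW16 with 8. W stands for Western diet, C for chow diet, and 8 or 16 for the weeks on it, starting at 8 weeks of age. All 45 mice lack ApoE, so no group is wild type, and the set has no EC8 group. The genotypes are germline, so adipocytes were not the only cells that carried them.

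In the adipocyte, glucose carbon leaves the mitochondrion as citrate through Slc25a1 and is turned into acetyl-CoA by Acly. Acaca and Fasn build it into palmitate with NADPH from enzymes such as Me1 and Pgd. The 4 genes grouped here as NADPH supply are Me1, Pgd, Tkt and Taldo1, of which Tkt and Taldo1 make no NADPH themselves. Elovl6 lengthens palmitate and Scd1 and Scd2 desaturate the product. Fatty acids also arrive from lipoproteins through Lpl and Cd36, are activated by the Acsl enzymes, and are joined to glycerol 3-phosphate by Gpam, the Agpat and lipin enzymes, Dgat1 and Dgat2. Insulin acts on the pathway largely through the transcription factor SREBP1 (Srebf1), and glucose through ChREBP (Mlxipl). Both factors are known for control of the same synthetic enzymes.

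Promoter windows of 3 synthetic members are given here because all of them were low in EC16 mouse 5, as described below. The windows run from 250 bases before to 50 bases after the RefSeq start on GRCm38.p6 and are written 5′ to 3′ on the gene's strand. Capitals mark CCAAT, the box bound by NF-Y, a factor known to act beside SREBP, and CACGTG, an E-box, on either strand. Fasn lies at chr11:120824498-120824797 on the minus strand, Slc25a1 at chr16:17928170-17928469 on the minus strand, and Acss2 at chr2:155517793-155518092 on the plus strand.
Fasn: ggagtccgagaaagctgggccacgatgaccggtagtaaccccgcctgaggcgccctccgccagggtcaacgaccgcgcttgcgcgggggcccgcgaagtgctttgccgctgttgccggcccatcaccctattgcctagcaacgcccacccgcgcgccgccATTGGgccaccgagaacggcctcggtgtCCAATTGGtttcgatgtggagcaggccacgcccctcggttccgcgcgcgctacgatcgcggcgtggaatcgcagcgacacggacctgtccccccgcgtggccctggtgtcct
Slc25a1: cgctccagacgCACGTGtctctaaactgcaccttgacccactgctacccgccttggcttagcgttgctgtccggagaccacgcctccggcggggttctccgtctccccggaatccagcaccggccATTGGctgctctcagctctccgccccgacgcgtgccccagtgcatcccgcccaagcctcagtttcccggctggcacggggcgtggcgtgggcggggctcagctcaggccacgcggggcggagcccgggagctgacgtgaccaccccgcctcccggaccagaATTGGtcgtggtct
Acss2: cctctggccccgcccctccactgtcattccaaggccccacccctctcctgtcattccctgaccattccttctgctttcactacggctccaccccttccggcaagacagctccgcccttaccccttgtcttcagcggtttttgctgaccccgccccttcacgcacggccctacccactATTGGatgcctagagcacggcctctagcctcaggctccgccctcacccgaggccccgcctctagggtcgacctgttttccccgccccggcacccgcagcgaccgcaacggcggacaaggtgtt
The Fasn window holds 3 CCAAT matches, the last pair overlapping, Slc25a1 holds 2 and 1 E-box, and Acss2 holds 1. RefSeq windows matched 33 of the 42 members, with 45 windows in all. CCAAT was found in 23 of these 45 windows (51.1%), against 37.4% of all 32851 windows of the same length. CACGTG was found in 11.1% of the members' windows and 7.15% of all windows. CACCCCA, which holds the core letters of sites of Krüppel-like factors and is not in capitals here, was found in 13.3% of the members' windows and 7.62% of all windows. These matches are letter strings and no measure of binding.

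The arrays differed in range. In 10 of them, DW16 mice 1 to 7 and EW16 mice 1 to 3, the 95th percentile of the log2 values was 10.14 to 10.85, and in the other 35 it was 10.95 to 11.14. The 10 are called narrow-range arrays. The boundary was set after the values had been seen, and the sources name no batch. This matters for highly expressed genes, and 36 of the 42 members lie in the top 10% of level, with a median percentile of 98.45. For calls of members that include DW16 or EW16, values after a further quantile normalization and without these arrays are therefore given too. Gene levels are log2 RMA values, each read from the gene's probe set of highest mean unless another is named. The adipocyte marker Adipoq was at 14.58 in DC16 mice. Markers of other cells were also measured, such as Kdr of endothelium at 10.43 and Dcn of fibroblasts at 13.94. In bulk RNA, fewer cells of a type and less RNA per cell cannot be told apart. Replicates are separate mice.

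The members differed widely in how much they varied between mice of 1 group. Over the 35 mice with ordinary arrays, the pooled SD within groups lay above the 95th percentile of probe sets of like level for 13 of the 42 members. These were 5 of the 7 genes of fatty acid synthesis, 2 of the 3 of glycerol 3-phosphate supply, 2 of the 8 of elongation and desaturation, 0 of the 3 of fatty acid activation, and 1 each of the other 4 roles. The SD of Elovl6, the elongase of palmitate, was 0.896 log2 units, at the 99.92nd percentile. Acss2, which makes acetyl-CoA from acetate, had an SD of 0.808 (99.88th percentile). Pck1, which supplies glycerol 3-phosphate from pyruvate, had 0.672 (99.56th), Scd2 0.672 (99.49th), Pnpla3, a lipid droplet protein, 0.612 (98.50th), Me1 0.567 (99.10th), Mlxipl 0.542 (98.17th) and Gpd1 0.506 (98.28th). Near the middle for their level were Fads1 (55.41st percentile), Elovl5 (45.77th), Fads3 (42.73rd) and Lpin2 (40.81st), and Elovl1 was lower (29.93rd). Acsl5, another acyl-CoA synthetase, was at the 2.388th percentile. The desaturase Scd1, the lipase Lpl and the binding protein Fabp4 had the lowest SDs of the members, 0.0294, 0.0474 and 0.0544, near the ceiling of the array, whose highest value was 14.97. For these 3 genes small differences may be compressed.

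Some chow-fed mice lay far below their group mates. Elovl6 was at 14.04, 13.63, 13.96, 14.22 and 10.62 in EC16 mice 1 to 5. In DC8 mice 1 to 7 it was at 13.93, 13.77, 10.87, 13.76, 13.64, 11.88 and 13.82. In DC16 mice 1 to 5 it was at 14.11, 14.08, 14.18, 14.12 and 14.12. Thus EC16 mouse 5 and DC8 mice 3 and 6 were low, and the 5 DC16 mice were high and nearly equal (SD 0.038). Elovl6 in EC16 mouse 5 was 10.2-fold below the mean of its group mates and in DC8 mouse 3 it was 6.05-fold below. These mice were singled out after their values had been seen, so these values are a description with no test.

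The same mice were low for other steps of synthesis. Acss2 was at 10.14 in EC16 mouse 5 against 12.27 to 13.37 in its group mates, and at 10.43 and 11.20 in DC8 mice 3 and 6 against 12.79 to 13.04. Me1, the malic enzyme that yields NADPH, was at 11.96 in EC16 mouse 5 against 13.45 to 14.24, and at 11.96 in DC8 mouse 3 and 12.80 in DC8 mouse 6 against 13.83 to 14.05. Fasn was at 13.34 in EC16 mouse 5 against 14.36 to 14.52, and at 13.53 in DC8 mouse 3. Slc25a1 was at 11.73 in EC16 mouse 5. In the same mouse Gpd1, which makes glycerol 3-phosphate from a glycolytic intermediate, was at 10.61 against 12.60 to 13.03.

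Lpl, the lipase that releases fatty acids from lipoproteins, spanned no more than 14.55 to 14.67 over the EC16 mice. This probe set lies near the ceiling of the array, so a fall may be hidden. In the other Lpl probe set (1431056_a_at) EC16 mouse 5 was the lowest of its group, at 13.97 against 13.99 to 14.24. Pck1 stood the other way, at 12.79 in EC16 mouse 5 against 12.25 to 12.51 in its group mates. EC16 mouse 5 held the lowest value of its group for 29 of 42 members (69.0%), against 25.2% of all 18193 genes and 28.3% of genes in the top 10% of level. DC8 mouse 3 was lowest for 20 members (47.6%), against 23.0% and 38.2%. DW8 mouse 1 was lowest for 19 members (45.2%), against 19.4% and 16.8%. The EC16 group's median SD over the 42 members was 0.364, against 0.141 over all genes, and that of DC16 was 0.169, against 0.192.

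**Figure D1:**
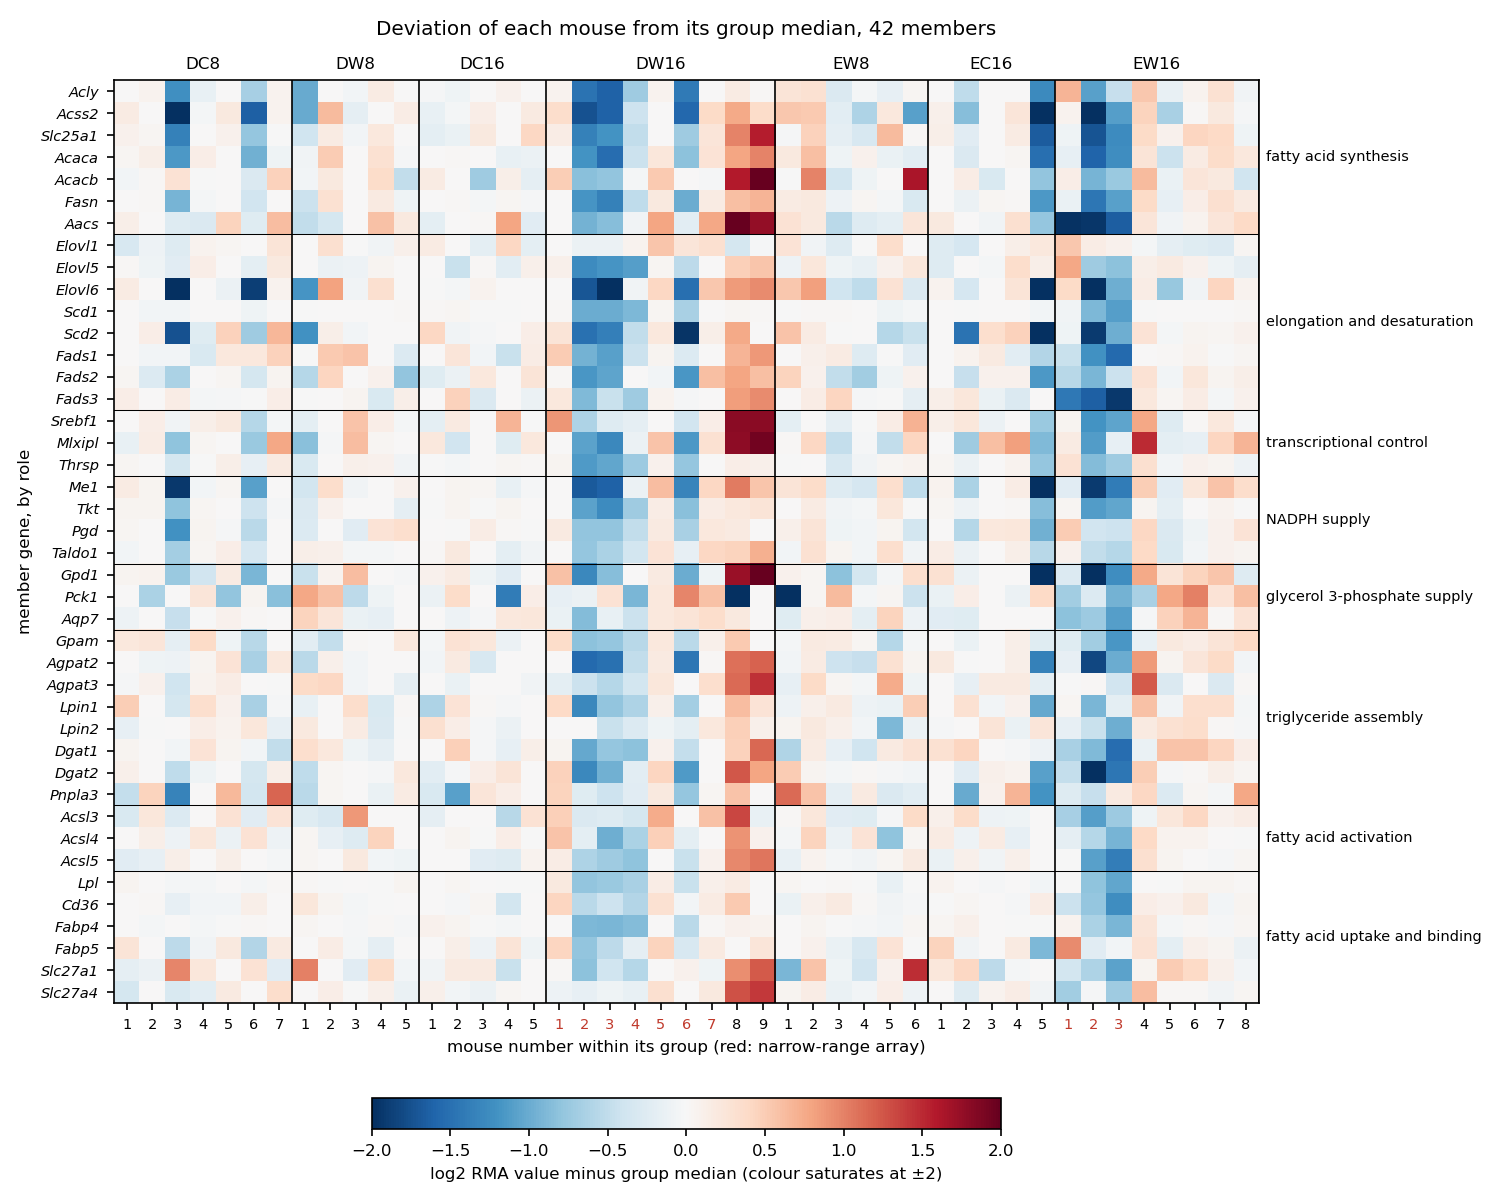
Deviation of the log2 RMA value of each member (rows, by role) from the median of the mouse's own group, for all 45 mice (columns). EC16 mouse 5 and DC8 mouse 3 show low columns through synthesis, NADPH supply and triglyceride assembly. These break at Pck1 and at Lpl, Cd36 and Fabp4, of which Lpl and Fabp4 lie near the ceiling of the array. Among DW16 mice the ordinary arrays 8 and 9 are mostly high.

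**Figure D2:**
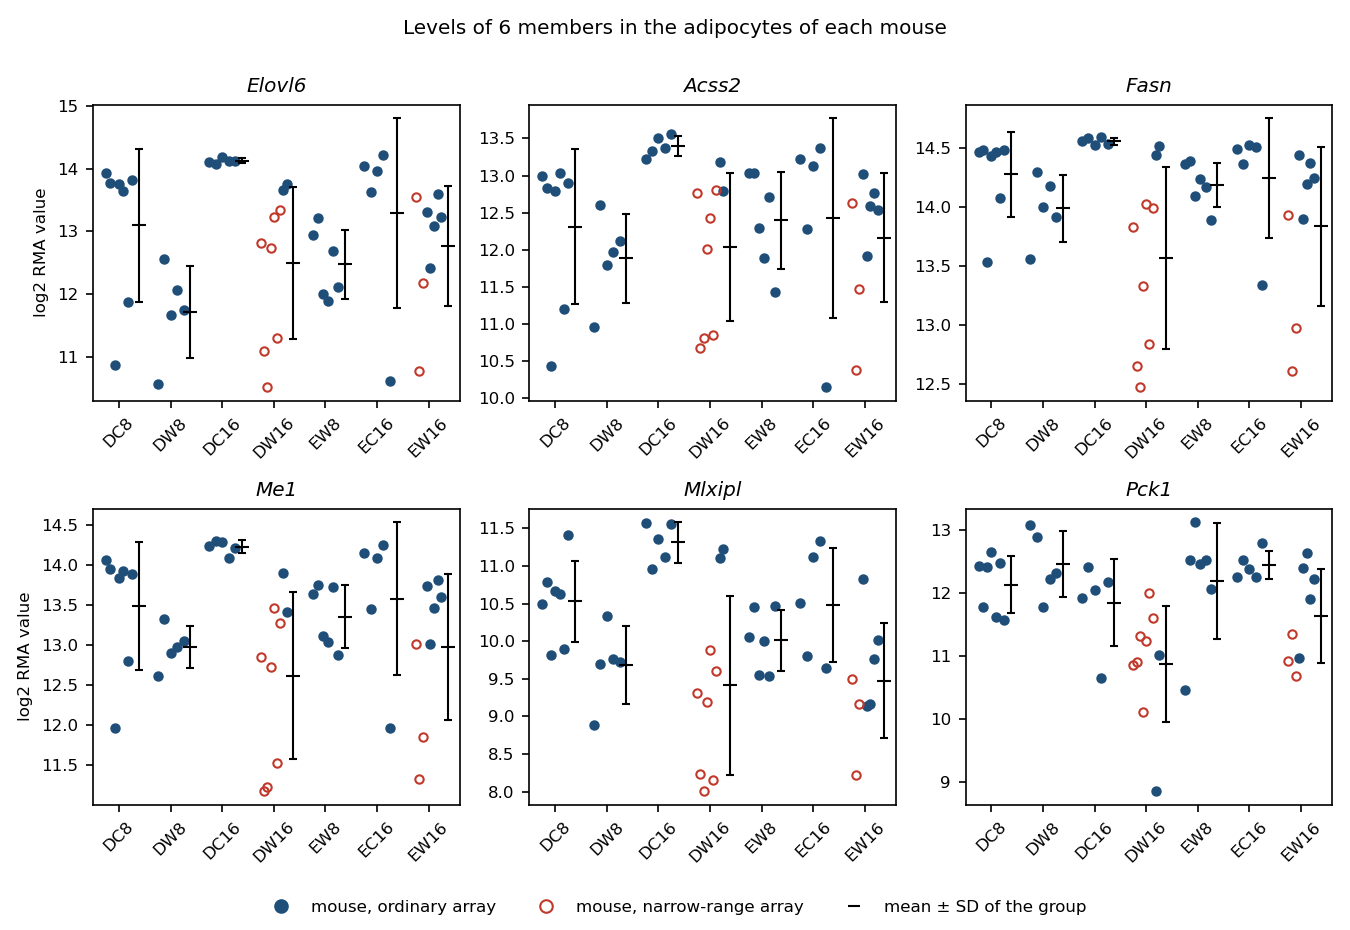
Log2 RMA values of 6 members in each mouse by group, with the group mean ± SD. Open red circles are narrow-range arrays. The 5 DC16 mice lie close together for Elovl6 (14.08 to 14.18) while DC8 and EC16 hold mice as low as 10.87 and 10.62.

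Whether the mouse-to-mouse spread of the enzymes followed either transcription factor was asked over the 35 mice with ordinary arrays. Each gene was centred on its group mean, and 20 pairs were tested with two-sided permutation tests (mice permuted within groups). Of the 20 pairs, 11 passed an adjusted p of 0.05, 7 with Mlxipl and 4 with Srebf1. Mlxipl went with Acly at rho = 0.73 (r = 0.77, permutation p = 2e-05, adjusted p = 0.0004), with both on the same side of their group means in 28 of 35 mice. Mlxipl went with Pnpla3 at rho = 0.68 (r = 0.71, permutation p = 9e-05, adjusted p = 0.0009), again in 28 mice. For Mlxipl and Fasn rho was 0.58 (r = 0.63, permutation p = 0.0007, adjusted p = 0.00467, 25 mice). Acaca, Elovl6, Me1 and Acss2 followed Mlxipl at rho of 0.56, 0.53, 0.52 and 0.50 (adjusted permutation p = 0.0074, 0.0083, 0.0128 and 0.0183).

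Srebf1 went with Acacb, the acetyl-CoA carboxylase that limits fatty acid oxidation, at rho = 0.53 (r = 0.60, permutation p = 0.00185, adjusted p = 0.0074, 21 mice). With Acly, Fasn and Elovl6 rho was 0.51, 0.48 and 0.40 (adjusted permutation p = 0.0128, 0.0187 and 0.0491). When the 2 mice with the most extreme Srebf1 values were left out, r for Fasn was 0.23 in place of 0.42, so that relation leans on those mice. For Acacb r was then 0.53 in place of 0.60, for Acly 0.36 in place of 0.51 and for Elovl6 0.32 in place of 0.45. The same step for the most extreme Mlxipl values left r for Mlxipl with Acly at 0.73, with Pnpla3 at 0.71 and with Fasn at 0.58. It left r at 0.58 for Acaca, 0.62 for Elovl6, 0.56 for Me1 and 0.56 for Acss2. Scd1 passed with neither factor (rho = 0.03 with Srebf1, adjusted permutation p = 0.869, and 0.30 with Mlxipl, adjusted permutation p = 0.131). Its SD of 0.0294 near the ceiling of the array left little variation to relate, so these 2 tests cannot decide whether Scd1 followed either factor. Probe sets at large also moved with these factors: the median absolute rho over the array was 0.157 for Mlxipl and 0.148 for Srebf1. The 95th percentile of that measure was 0.424 and 0.431, and 0.482 and 0.526 among probe sets in the top 10% of level. Of the 4 Srebf1 pairs only that with Acacb exceeded 0.526. Without the DC8 mice 3 pairs passed, and without the EC16 or the EW16 mice 7 passed. The difference between both factors was not tested.

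**Figure D3:**
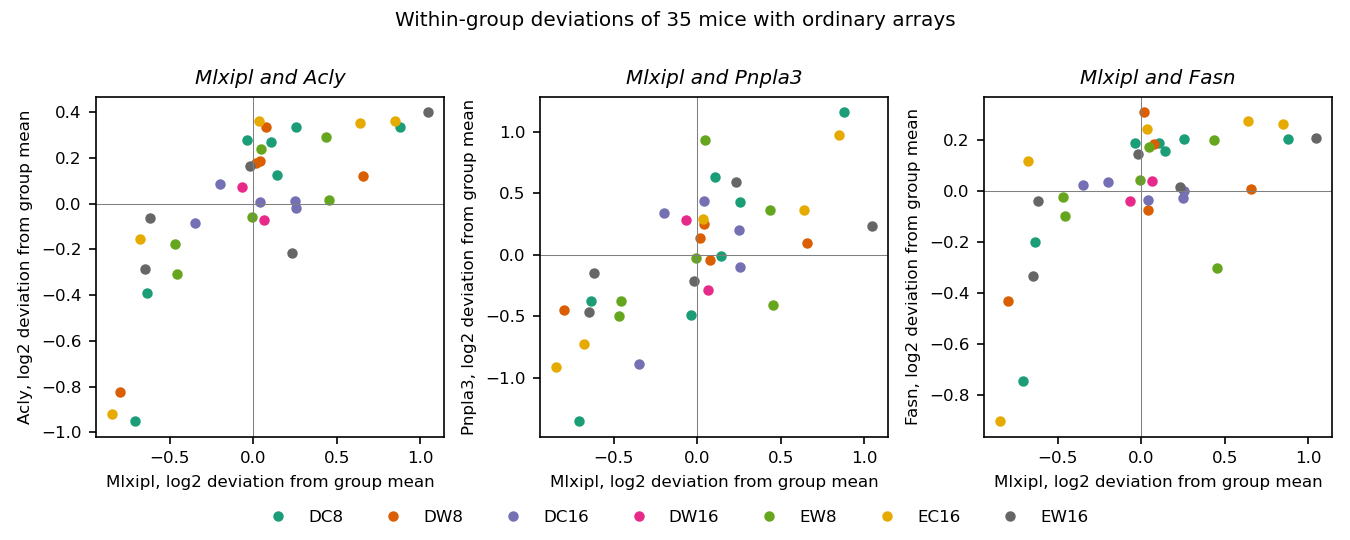
Deviation of Mlxipl from its group mean (horizontal axis, log2) against that of Acly, Pnpla3 and Fasn (vertical axes, log2) in the 35 mice with ordinary arrays, coloured by group. Mice low for Mlxipl include the 3 lowest for Acly, which lie 0.8 log2 units or more below their group means.

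After 8 weeks of Western diet, 2 of 103 member probe sets passed limma at an adjusted p under 0.01 in DW8 against DC8 mice, against 1.08% of all probe sets (0.921% higher and 0.155% lower). Neither group holds a narrow-range array. A probe set of Fads2 (1449325_at), the delta-6 desaturase of polyunsaturated fatty acids, was at 6.35, 6.65, 6.52, 6.55 and 6.48 in DW8 mice and at 7.01, 7.07, 6.75, 7.06, 7.22, 6.85 and 7.25 in DC8 mice. The groups did not overlap, and the probe set fell by 0.52 (SE 0.0918, limma adjusted p = 0.00716). The 2 other Fads2 probe sets lay 0.49 and 0.50 lower without passing (adjusted p = 0.17 and 0.188).

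A probe set of Lpin2 (1452837_at), a phosphatidate phosphatase of triglyceride synthesis, was at 8.40, 8.31, 8.65, 8.18 and 8.24 in DW8 mice. It was at 7.92, 7.79, 7.69, 7.93, 7.85, 7.96 and 7.83 in DC8 mice. Every DW8 mouse lay above every DC8 mouse, and the probe set rose by 0.50 (SE 0.0848, limma adjusted p = 0.00544). The probe set that represents Lpin2 was 0.26 higher (SE 0.0958, adjusted p = 0.137).

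No other member probe set passed in DW8 mice, and differences are given by role. All 7 genes of fatty acid synthesis had lower means in DW8 than in DC8 mice, with a median difference of -0.31, and so did the 4 genes of NADPH supply (median -0.249). Elovl6 was at 10.56, 12.56, 11.67, 12.06 and 11.75 in DW8 mice, below 5 of the 7 DC8 mice, with a difference of -1.37 (SE 0.514, limma adjusted p = 0.149). Mlxipl differed by -0.85 (SE 0.265, adjusted p = 0.0854), whereas Srebf1 differed by 0.29 (SE 0.141, adjusted p = 0.281). Elovl1, the elongase of very long saturated chains, differed by -0.47 (SE 0.103, adjusted p = 0.0206). The 3 acyl-CoA synthetases had higher or equal means, with differences of 0.54 for Acsl3 (SE 0.184, adjusted p = 0.112), 0.35 for Acsl4 (SE 0.117, adjusted p = 0.106) and 0.01 for Acsl5 (SE 0.0778, adjusted p = 0.979). At an unadjusted p under 0.05, 34 of the 103 member probe sets passed, against 19.1% of all probe sets. DC8 mice 3 and 6, which were low for synthesis, are among the controls of this comparison. Without DC8 mouse 3 the median difference over the 42 members was -0.202 in place of -0.135.

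After 16 weeks of Western diet in D mice, 3 of 103 member probe sets passed in DW16 against DC16 mice, against 3.43% of all probe sets (0.797% higher and 2.63% lower). Means of 40 of 42 members were lower in DW16 mice, with a median difference of -0.66, but the median of probe sets in the top 10% of level was also -0.441. After quantile normalization the members' median was -0.265 with 34 lower, and that of the top 10% -0.0358. The 2 DW16 mice with ordinary arrays gave 0.0255, with 22 members higher and 20 lower. The median difference therefore turned its sign with the narrow-range arrays, and diet and array range cannot be told apart in the other 7 DW16 mice.

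For none of the 3 genes with a called probe set did the probe set that represents the gene pass. Acaca, the first committed enzyme of synthesis, was measured by 1427595_at at 8.09, 8.47, 8.27, 6.87 and 8.33 in DC16 mice. In DW16 mice 1 to 9 it was at 6.46, 5.91, 5.38, 6.59, 6.58, 5.84, 6.54, 7.73 and 6.32. DC16 mouse 4 and DW16 mouse 8 overlapped with the other group, and the probe set fell by 1.63 (SE 0.327, limma adjusted p = 0.00768). The other Acaca probe set lay at -1.27 (SE 0.353, adjusted p = 0.023). The called probe set of Acaca fell by 1.53 after quantile normalization (adjusted p = 0.00881) and differed by -0.98 without the narrow-range arrays (adjusted p = 0.687).

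A probe set of Lpl (1431056_a_at) was at 14.13, 14.32, 14.07, 13.89 and 14.22 in DC16 mice. In DW16 mice 1 to 7 it was at 12.64, 11.54, 11.97, 12.16, 12.44, 12.12 and 12.62, and in mice 8 and 9 at 13.96 and 13.63. The low values of Lpl were thus those of the narrow-range arrays. It fell by 1.56 over all mice (SE 0.322, adjusted p = 0.00825), by 1.16 after quantile normalization (adjusted p = 0.00527), and differed by -0.33 without the narrow-range arrays (adjusted p = 0.665). The probe set that represents Lpl differed by -0.36 (adjusted p = 0.153).

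For Scd2, probe set 1415824_at was at 6.94, 6.31, 6.81, 6.75 and 7.03 in DC16 mice, and in DW16 mice 1 to 9 at 8.44, 8.24, 8.16, 9.67, 9.14, 6.96, 8.98, 8.72 and 8.10. All DW16 mice except mouse 6 lay above all DC16 mice, and it rose by 1.72 (SE 0.325, adjusted p = 0.0063). Scd2 rose by 1.99 after quantile normalization (adjusted p = 0.00516), and DW16 mice 8 and 9 alone gave 1.64 (adjusted p = 0.155). The 2 brighter probe sets of Scd2 lay at -0.57 and -0.59 (adjusted p = 0.289 and 0.332), so the probe sets of Scd2 disagreed in direction.

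Mlxipl and several enzymes of the pathway differed by over 1.5 log2 units without passing. Mlxipl was at 11.57, 10.96, 11.35, 11.11 and 11.56 in DC16 mice. In DW16 mice 1 to 7 it was between 8.01 and 9.88, and in mice 8 and 9 at 11.10 and 11.23, within the range of the controls. The difference for Mlxipl was -1.90 (SE 0.489, limma adjusted p = 0.0174), -1.55 after quantile normalization and -0.15 without the narrow-range arrays. Slc25a1, the citrate carrier, differed by -1.59 (SE 0.398, adjusted p = 0.016), Gpd1 by -1.73 (SE 0.476, adjusted p = 0.0223), Elovl6 by -1.63 (SE 0.488, adjusted p = 0.0304) and Me1 by -1.61 (SE 0.422, adjusted p = 0.0187). These differences were -0.22 for Slc25a1, 0.04 for Gpd1, -0.42 for Elovl6 and -0.57 for Me1 without the narrow-range arrays, so that all 4 were smaller and that of Gpd1 turned its sign. Pck1 stood apart from these, as it was at 8.86 and 11.02 in DW16 mice 8 and 9 and between 10.11 and 11.99 in the other 7, against 11.92, 12.40, 12.04, 10.65 and 12.17 in DC16 mice. The difference of Pck1 was -0.96 over all mice and -1.90 for mice 8 and 9 alone.

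Markers of other cells also differed in this comparison, in values as deposited. Of the 9 DW16 arrays 7 are narrow-range, and the median difference of probe sets in the top 10% of level was -0.441. Marker levels were not computed after quantile normalization or without these arrays. Array range and a change of cells therefore cannot be told apart here. From DC16 to DW16 mice the summed log2 level of the 6 endothelial markers went from 11.88 (range 11.76 to 12.02) to 11.01 (10.37 to 12.16), that of the 5 fibroblast markers from 14.80 to 14.01, of the 5 mesothelial markers from 10.32 to 9.16, of the 6 macrophage markers from 13.11 to 12.82 and of the 6 adipocyte markers from 16.01 to 15.56. That of the 5 lymphocyte markers went from 12.08 (range 11.83 to 12.59) to 10.23 (9.216 to 10.9), with no overlap. This sum followed its brightest marker, Ighm, whose mean went from 12.03 to 9.976. Means of Cd3e, Cd3g and Cd79a were higher in DW16 mice and that of Ms4a1 was lower. The median difference over the 5 lymphocyte markers was 0.0586. Of these lists 2 of 5 lymphocyte markers passed (Ighm at -2.05 and Cd3e at 0.49), as did 1 of 6 endothelial, 1 of 5 mesothelial and 1 of 6 adipocyte markers, and 0 of 5 fibroblast and 0 of 6 macrophage markers. The summed level of the 4 epithelial markers went from 9.008 to 9.063. The red cell marker Alas2 went from 7.672 to 7.997, and no epithelial or red cell marker passed. The part of all these markers in the differences of the lipogenic genes was not tested.

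**Figure D4:**
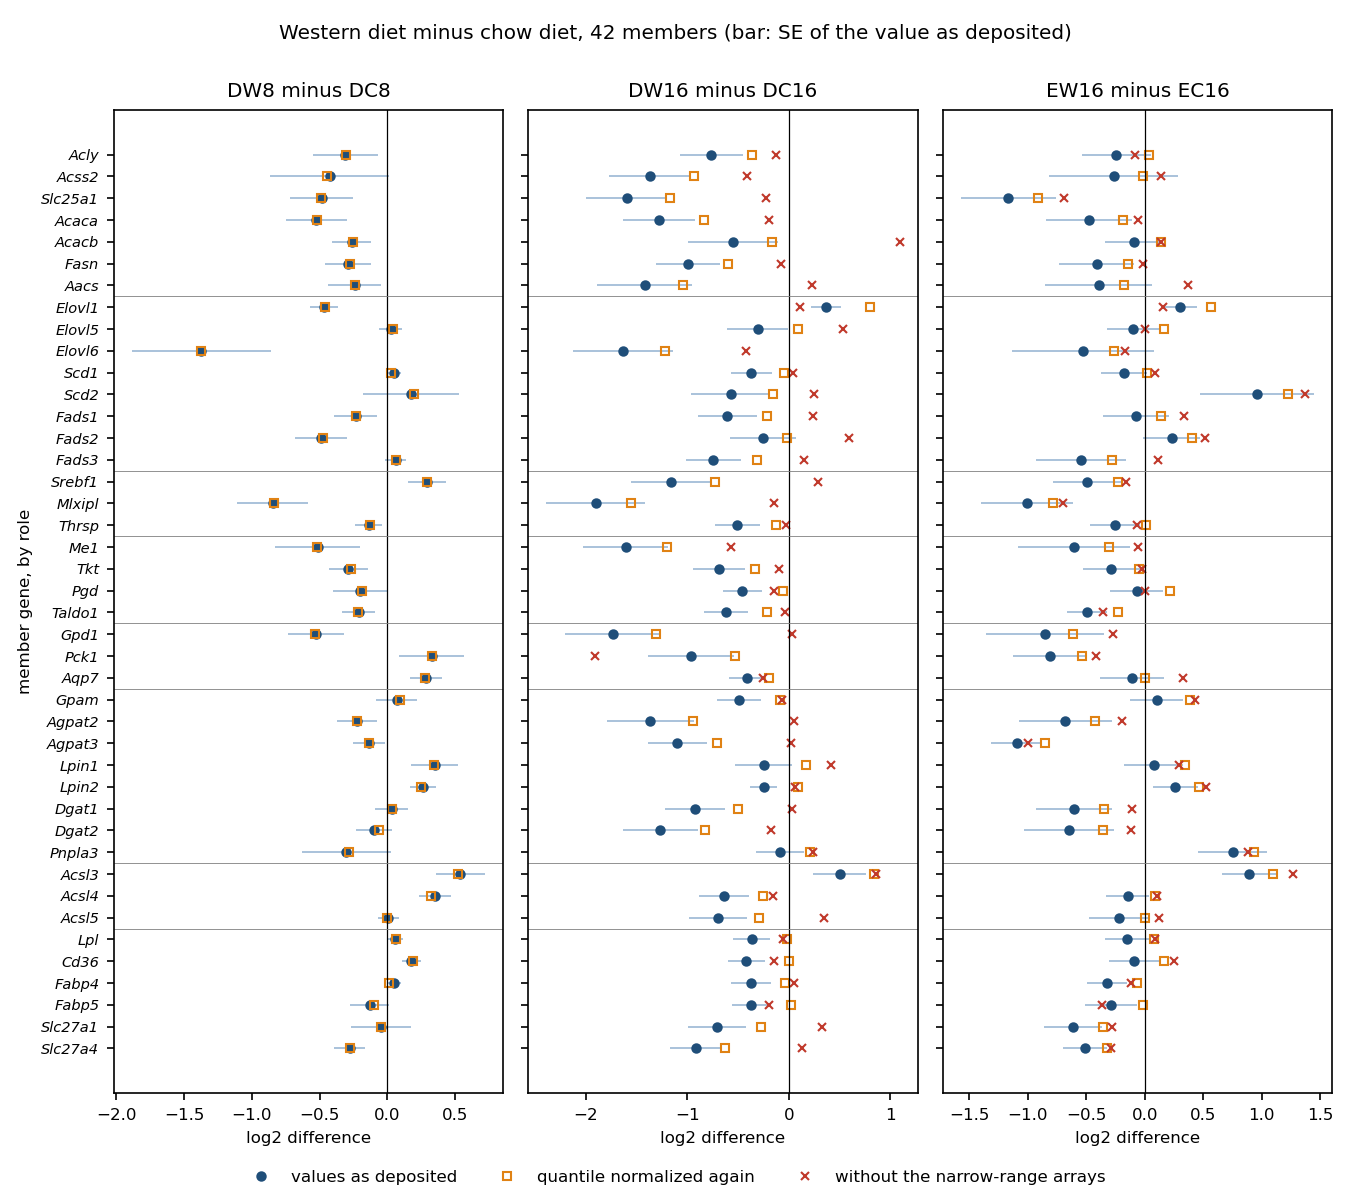
Log2 difference of Western diet minus chow diet for the 42 members by role, for DW8 against DC8, DW16 against DC16 and EW16 against EC16. Circles are values as deposited with their SE, squares values normalized again and crosses values without the narrow-range arrays. In the middle panel the circles lie left of 0 for 40 members and the crosses for 20.

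In E mice after 16 weeks, 2 of 103 member probe sets passed in EW16 against EC16 mice, against 2.66% of all probe sets (0.271% higher and 2.39% lower). Acsl3, an acyl-CoA synthetase of lipid droplets, was measured by 1428386_at at 6.99, 7.06, 6.86, 6.52 and 6.64 in EC16 mice. In EW16 mice it lay between 7.26 and 8.12, with a median of 7.88. The groups did not overlap, and the probe set rose by 0.95 (SE 0.162, limma adjusted p = 0.00456). Acsl3 also rose after quantile normalization (by 1.11, adjusted p = 0.00454) and without the narrow-range arrays (by 0.93, adjusted p = 0.00449).

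The probe set that represents Acsl3 (1452771_s_at) was at 8.38, 8.65, 8.18, 8.19 and 8.28 in EC16 mice. In EW16 mice 1 to 3, the narrow-range arrays, it was at 8.78, 8.34 and 8.72, and in mice 4 to 8 at 9.36, 9.67, 9.86, 9.52 and 9.59. All 5 ordinary arrays lay above the controls. The difference for this Acsl3 probe set was 0.90 over all mice (SE 0.235, adjusted p = 0.0301), and it passed after quantile normalization (1.10, adjusted p = 0.00229) and without the narrow-range arrays (1.27, adjusted p = 0.000534). The third Acsl3 probe set differed by 0.30 (adjusted p = 0.337). In D mice Acsl3 differed by 0.54 after 8 weeks and by 0.50 after 16 weeks, with neither passing.

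Agpat3, an acyltransferase that makes phosphatidate, was at 11.01, 10.85, 11.20, 11.19 and 10.82 in EC16 mice. In EW16 mice 1 to 8 it was at 9.87, 9.91, 9.50, 11.10, 9.59, 9.89, 9.59 and 9.90. Of the EW16 mice 7 lay below all controls, among them 4 with ordinary arrays, and mouse 4 lay among the controls. Agpat3 fell by 1.10 (SE 0.219, limma adjusted p = 0.00874). It did not pass after quantile normalization (-0.86, adjusted p = 0.0225) or without the narrow-range arrays (adjusted p = 0.0161). The 3 other probe sets of Agpat3 differed by -0.01, -0.23 and -0.33 (adjusted p = 0.973, 0.471 and 0.414). In DW16 mice 1 to 7 Agpat3 was between 9.47 and 10.38, and in mice 8 and 9 at 11.17 and 11.50, close to the 11.22 to 11.36 of DC16 mice.

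**Figure D5:**
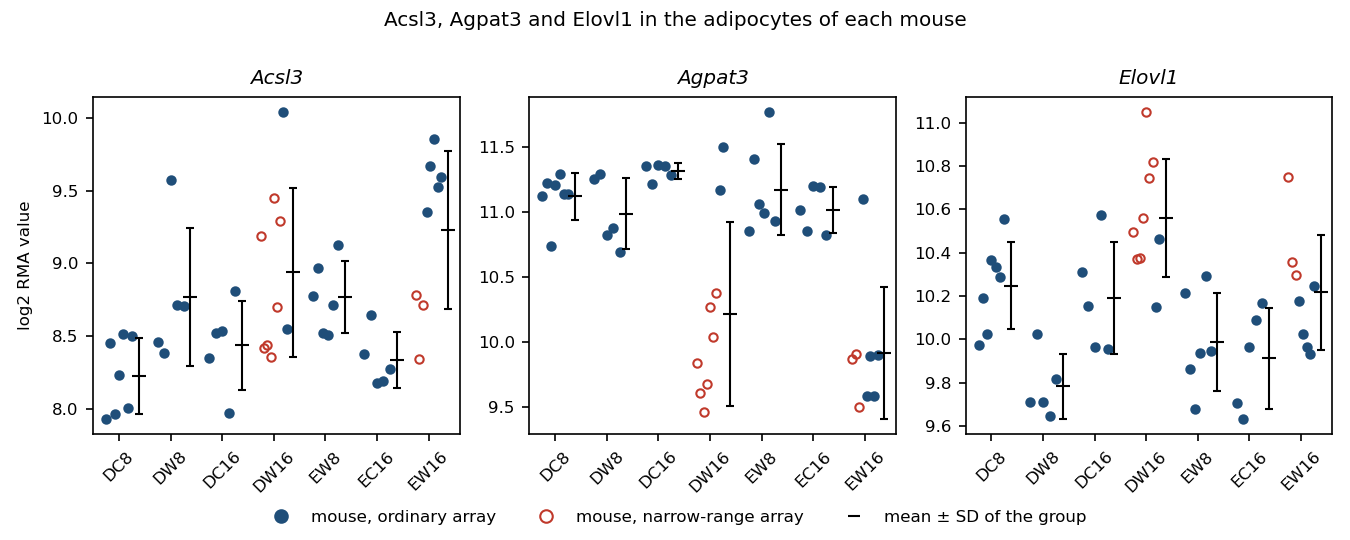
Log2 RMA values of Acsl3, Agpat3 and Elovl1 (the probe set of highest mean) in each mouse by group, with the group mean ± SD. Open red circles are narrow-range arrays. For Agpat3 the ordinary arrays of EW16 lie near 9.6 to 9.9 except mouse 4 at 11.10, and those of DW16 lie at 11.17 and 11.50.

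Other members of E mice did not pass. Means of 34 of 42 members were lower in EW16 mice, with a median of -0.276 against -0.28 for the top 10% of level, and after quantile normalization the members' median was -0.0127. Without the narrow-range arrays it was -0.00682, and 6 member probe sets passed. Beside the 2 of Acsl3, these were probe sets of Acsl4, Cd36, Fads3 and Lpin2. The share of all probe sets called without these arrays is not given here. At an unadjusted limma p under 0.05, 34 of the 103 member probe sets then passed, against 33.7% of all probe sets. With all mice 23 passed, against 27.7%. The 6 calls are thus not shown to be particular to the members. Lpin2 rose by 0.52 without the narrow-range arrays (adjusted p = 0.00705). Another Lpin2 probe set (1452837_at) lay lower on those ordinary EW16 arrays, with a median of 7.48 (7.13 to 8.49). Its median in EC16 mice was 8.16 (7.98 to 8.27), so these probe sets of Lpin2 disagreed in direction. Mlxipl differed by -1.004 (SE 0.392, adjusted p = 0.119), Slc25a1 by -1.17 (SE 0.409, adjusted p = 0.0879), Scd2 by 0.96 (SE 0.489, adjusted p = 0.215) and Pnpla3 by 0.75 (SE 0.298, adjusted p = 0.124). EC16 mouse 5, low for synthesis, is among these controls, and without it the members' median was -0.464. The 5 mesothelial markers went from a summed level of 10.71 in EC16 to 9.28 in EW16 mice, and 3 of 5 passed. These are values as deposited, and no marker of the other lists passed. Their part in these differences was not tested.

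Between 8 and 16 weeks of Western diet in D mice, 7 of 103 member probe sets passed in DW16 against DW8 mice, against 5.41% of all probe sets (0.933% higher and 4.48% lower). Without the narrow-range arrays, with 2 DW16 mice left, none of the 7 passed, and the median difference of the 42 members was 0.465 in place of -0.377. Elovl1 was at 9.71, 10.03, 9.71, 9.65 and 9.82 in DW8 mice and between 10.15 and 11.05, with a median of 10.495, in DW16 mice. The groups did not overlap, and Elovl1 rose by 0.77 (SE 0.13, limma adjusted p = 0.00323). It rose by 1.21 after quantile normalization (adjusted p = 0.00237) and differed by 0.52 without the narrow-range arrays (adjusted p = 0.21). With 2 further Elovl1 probe sets it made 3 of the 7 calls, at 0.67 and 0.60 (adjusted p = 0.00174 and 0.00477). All 3 are of a design whose probes can match other transcripts, and the fourth probe set of Elovl1 differed by -0.15 (adjusted p = 0.503). Of the called ones, 1443820_x_at lay at a low level, 4.43 to 4.71 in DW8 mice. In DW16 mice it was at 4.71 to 5.33 on narrow-range arrays and at 4.88 and 4.90 on the other 2. Against DC8 and DC16 mice, Elovl1 had been lower in DW8 (-0.47) and higher in DW16 mice (0.37), and neither of these 2 differences passed.

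The other called probe sets of this comparison were of Fads2, Fads3, Thrsp and Lpl. Fads2 (1449325_at) was between 6.35 and 6.65 in DW8 mice and between 6.86 and 8.01, with a median of 7.49, in DW16 mice, and rose by 0.88 (SE 0.185, adjusted p = 0.00714). Fads2 rose by 1.04 after quantile normalization (adjusted p = 0.00325) and differed by 1.06 without the narrow-range arrays (adjusted p = 0.0405). Fads3 (1449219_at), another desaturase of the same gene cluster, fell by 1.11 (SE 0.177, adjusted p = 0.00263), by 0.79 after quantile normalization (adjusted p = 0.00285), and differed by -0.74 without the narrow-range arrays (adjusted p = 0.249). Thrsp (1444166_at), a nuclear protein of lipogenic tissue, was between 6.43 and 6.69 in DW8 mice and between 6.75 and 7.56 in DW16 mice, and rose by 0.56 (SE 0.12, adjusted p = 0.00764). This Thrsp probe set rose by 0.73 after quantile normalization (adjusted p = 0.00556) and differed by 0.44 without the narrow-range arrays (adjusted p = 0.208). The probe set that represents Thrsp differed by -0.14 (adjusted p = 0.645). Lpl (1431056_a_at) fell by 1.57 (SE 0.319, adjusted p = 0.00633) and by 1.17 after quantile normalization (adjusted p = 0.00318). Without the narrow-range arrays, which hold the low values of Lpl, the difference was -0.34 (adjusted p = 0.294). The called probe sets of Fads2, Fads3 and Lpl are not those that represent the genes, and no other probe set of these genes passed.

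Markers of other cells and of adipocytes also differed in this comparison, in values as deposited that include the narrow-range arrays. The median difference of probe sets in the top 10% of level was -0.489. Marker differences were not computed after quantile normalization or without those arrays. From DW8 to DW16 mice the median difference was -1.03 over the 6 endothelial markers, of which Cdh5 passed (-1.23), and -0.556 over the 5 fibroblast markers, of which Col3a1 passed (-1.24). It was -0.796 over the 6 macrophage markers, of which Mrc1 passed (-1.20), and -0.59 over the 6 adipocyte markers, of which Cidec (-1.36) and Plin4 (-1.42) passed. Over the 5 mesothelial markers it was -1.06, and none passed. It was higher than 0 over the lymphocyte (0.159), epithelial (0.184) and red cell (0.79) markers, and none of these passed. Their part in the differences of the members was not tested.

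In E mice, 2 of 103 member probe sets passed in EW16 against EW8 mice, against 1.57% of all probe sets (0.142% higher and 1.43% lower). Agpat3 was at 10.86, 11.41, 11.06, 10.99, 11.77 and 10.93 in EW8 mice, above all EW16 mice except mouse 4, and fell by 1.25 (SE 0.223, limma adjusted p = 0.00695). Agpat3 differed by -0.99 after quantile normalization (adjusted p = 0.0149) and by -1.15 without the narrow-range arrays (adjusted p = 0.0203). A probe set of Fabp4 (1425809_at), the main fatty acid binding protein of adipocytes, was between 10.67 and 11.32 in EW8 mice and between 8.95 and 10.64, with a median of 9.43, in EW16 mice. The groups did not overlap, and it fell by 1.30 (SE 0.218, adjusted p = 0.00645). This Fabp4 probe set differed by -1.04 after quantile normalization (adjusted p = 0.0191) and by -1.36 without the narrow-range arrays (adjusted p = 0.0155). The 3 other probe sets of Fabp4 differed by -0.39, -0.71 and -0.35 and did not pass. This comparison and that of EW16 with EC16 mice share the EW16 mice.

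Chow-fed mice of different age and genotype differed in many lipogenic means without a call. In DC16 against DC8 mice, 0 of 103 member probe sets passed limma, against 0% of all probe sets. At an unadjusted p under 0.05, 38 of the 103 passed, 37 of them higher in DC16 mice, against 8.74% of all probe sets. Fads2 was at 7.74 to 8.24 in DC16 mice and at 6.84 to 7.53 in DC8 mice, with no overlap and a difference of 0.70 (SE 0.133, limma adjusted p = 0.174). Slc25a1 differed by 0.79 (SE 0.235, adjusted p = 0.328), Mlxipl by 0.78 (SE 0.229, adjusted p = 0.315) and Acss2 by 1.09 (SE 0.403, adjusted p = 0.437). All 7 genes of fatty acid synthesis and all 4 of NADPH supply had higher means in DC16 mice, with medians of 0.482 and 0.298, whereas the 6 uptake genes had a median of 0.0586. Over the 42 members the median was 0.265 with 34 higher, against 45.4% of all genes higher. Without DC8 mouse 3 it was 0.168.

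The comparison of genotypes on chow diet shares the DC16 mice with the former. In DC16 against EC16 mice 0 of 103 member probe sets passed limma, against 0.00222% of all probe sets. At an unadjusted p under 0.05, 20 passed, 17 of them higher in DC16 mice, against 6.27% of all probe sets. Means of 38 of 42 members were higher in DC16 mice, with a median of 0.297, against 50.4% of all genes. Slc27a4, a fatty acid transport protein, was at 8.79 to 9.01 in DC16 mice and 8.32 to 8.72 in EC16 mice, with a difference of 0.35 (SE 0.0871, adjusted p = 0.764). Mlxipl differed by 0.83 (SE 0.302, adjusted p = 0.774) and Srebf1 by 0.51 (SE 0.196, adjusted p = 0.788), while Pck1 differed by -0.60 (SE 0.273, adjusted p = 0.79). Without EC16 mouse 5 the median was 0.152.

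Differences between the genotypes on Western diet did not pass. In DW8 against EW8 mice 0 of 103 member probe sets passed limma, against 0% of all probe sets, and 13 had an unadjusted p under 0.05, against 4.13%. Elovl6 differed by -0.76 (SE 0.333, adjusted p = 0.985) and Fads2 by -0.90 (SE 0.242, adjusted p = 0.985). In DW16 against EW16 mice 0 passed, against 0%, and 9 had an unadjusted p under 0.05, against 14.6%. Fasn differed by -0.27 (SE 0.326, adjusted p = 0.728), and the median over the 42 members was -0.158 with 8 higher. Both turned their sign without the narrow-range arrays, with Fasn at 0.25 (adjusted p = 0.427) and a median of 0.291 with 33 higher. Of the member probe sets 39 then had an unadjusted p under 0.05, 33 of them higher in DW16 mice, against 21.2% of all probe sets, and 2 DW16 mice were left. For the difference of the diet effect between D and E mice at 16 weeks, 0 member probe sets passed limma, against 0%, and 7 had an unadjusted p under 0.05, against 6.31%. For that between 16 and 8 weeks in D mice 0 passed, against 0.00444%, and 31 had an unadjusted p under 0.05, against 27.7%. Without the narrow-range arrays the median of the members went from -0.44 to -0.0448 in the former and from -0.618 to 0.166 in the latter. A diet difference that passed in 1 genotype or at 1 time was thus not shown to differ from that in the other.

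Of 56 further genes of lipid synthesis and uptake, 45 were measured by a probe set of their own. In DW8 against DC8 mice 1 passed, Gpihbp1, which holds lipoprotein lipase on the capillary wall (-0.63). In DW16 against DC16 mice 3 passed: Scap, the escort protein of SREBP, fell by 0.99, Mogat2, a monoacylglycerol acyltransferase, fell by 0.95, and Slc27a2, a fatty acid transport protein, rose by 0.55. In EW16 mice Lmf1, which matures lipoprotein lipase, fell by 1.58 against EC16 and by 1.57 against EW8 mice. In DW16 against DW8 mice Gpat3 and Gpd1l fell by 1.51 and 1.14. These are all the calls of this list over the 11 comparisons. Of all probe sets 1.08% passed in DW8 against DC8, 3.43% in DW16 against DC16 and 2.66% in EW16 against EC16 mice. The share was 1.57% in EW16 against EW8 and 5.41% in DW16 against DW8 mice. These differences are of values as deposited. For this list they were not computed after quantile normalization or without the narrow-range arrays.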

How the data were processed

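The authors prepared total RNA from adipocytes of 45 mice, put each mouse on 1 Affymetrix MG430-2.0 array and scaled the scans globally. The deposited values are log2 intensities per probe set that the authors made with RMA express. Its version is not given in the sources used here. The study mentions quantile normalization to remove mean differences between conditions. The deposited values still differ in range between arrays, and which arrays were normalized together was not settled here. Values were used as deposited (0 columns were left out), and the number of arrays limits the precision.

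Groups came from the labels. Gene names came from the platform annotation, in which 34945 probe sets have 1 symbol, 932 several and 9160 none. Where a gene has several probe sets, that of highest mean level stands for it. Only the groups compared entered each limma fit (limma 3.58.1, R 4.3.3, lmFit and eBayes). P-values of all 45037 probe sets were adjusted by Benjamini-Hochberg and called under 0.01, with no filter on level. Correlations of 20 pairs used 100000 permutations of mice within groups (NumPy 2.4.6, SciPy 1.17.1, Python 3.11.15), adjusted over the pairs. Plots were drawn with Matplotlib 3.10.9. Both procedures were tested on simulated data.

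The text names each member with a called probe set, the member with the brightest probe set in each role and the defining enzymes of the pathway, and mice that stand apart were named after their values had been seen. The members and lists, among them markers of adipocytes, macrophages, endothelium, mesothelium, lymphocytes, fibroblasts, epithelium and red cells, were chosen with earlier results of these data known. A narrow-range array is one whose 95th percentile lies over 3 median absolute deviations below the median of all arrays. Alternatives were quantile normalization again, 1 spread over all 7 groups, narrow-range arrays left out, probe sets above the median level, an adjusted p of 0.05, the replicate number as a block, calls shared with SAM (written anew, 100 label permutations), each mouse left out and, for the pairs, Pearson correlation, all 45 mice and each group left out. The last, and leaving mice out of the pairs, were added after the data had been seen.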

Additional observations from a re-analysis of the deposited data

Results flagged for a closer look

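In 294 combinations of 42 members and 7 groups, the highest or lowest mouse stood apart from the rest in 31 (10.5%), by a gap that chance gives in about 5% of groups. Over all genes the share was 7.83%. No explanation was tested.

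EC16 mouse 5 was low for 11 members. Its log2 values were 13.34 for Fasn, 12.32 for Acaca, 11.73 for Slc25a1, 10.62 for Elovl6, 14.73 for Scd1, 13.63 for Thrsp, 13.81 for Tkt, 10.61 for Gpd1, 11.78 for Agpat2, 10.68 for Lpin1 and 12.71 for Dgat2. Such low values in this mouse were found for 1.35% of all genes.

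Among DC8 mice, mouse 3 was low for Fasn (13.53), Agpat3 (10.74) and Aqp7, the glycerol channel (7.19), and mouse 6 for Srebf1 (11.81) and Agpat2 (12.40). Among DW8 mice, mouse 1 was low for Acly (12.51), Scd2 (12.12) and Agpat2 (12.33), and mouse 3 was high for Acsl3 (9.57). Among DC16 mice, mouse 4 was low for Pck1 (10.65) and Cd36 (13.49) and high for Aacs, which activates acetoacetate (12.10), and mouse 3 was high for Pgd (14.17).

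Among EW8 mice, mouse 5 was low for Gpam (12.96), Lpin2 (8.22) and Lpl (14.49), mouse 3 was low for Thrsp (13.96), and mouse 1 was high for Dgat2 (14.12). Among EW16 mice, mouse 4 was high for Agpat3 (11.10), against 9.91 in the nearest mouse, and mouse 1 was high for Fabp5 (14.26).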

How the results depend on the processing

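Counts of member probe sets at an adjusted p under 0.01 depended on the settings. With 1 spread over all 7 groups the counts were 0 for DW8 against DC8, 28 for DW16 against DC16, 5 for EW16 against EC16, 18 for DW16 against DW8 and 4 for EW16 against EW8. Without the narrow-range arrays they were 0, with 2 DW16 mice left, for DW16 against DC16 and against DW8, 6 for EW16 against EC16 and 0 for EW16 against EW8. Quantile normalization gave 11 for DW16 against DW8 and 0 for EW16 against EW8, and probe sets above the median level gave 12 for DW16 against DC16. At an adjusted p under 0.05 the counts were 9, 32, 5, 22 and 6 in the order given first, and 6 for the diet difference in D mice between 16 and 8 weeks. All calls in the 3 diet comparisons were shared with SAM. The cause of these shifts was not tested, except that fewer mice were left without the narrow-range arrays. Counts over all probe sets under these settings, and with the block below, are not given here. The shifts therefore cannot be read as particular to the members.

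With the replicate number as a block, which also drops mice whose number is not shared (DW16 mice 8 and 9 among them), the counts were 0 for DW8 against DC8, 38 for DW16 against DC16, 0 for EW16 against EC16, 27 for DW16 against DW8, 0 for EW16 against EW8 and 20 for the diet difference in D mice. Same-numbered mice did not deviate together in every pair of any comparison (median correlation of -0.105 to 0.191). In DW16 against EW16 mice the correlation ran from -0.437 to 0.532 over 8 pairs. The narrow-range arrays are those with the lowest numbers in DW16 and in EW16. What the replicate number stands for was not tested. In the other 5 comparisons the block changed no call.

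Leaving out 1 mouse at a time gave 0 to 6 called for DW8 against DC8, 0 to 23 for DW16 against DC16 (23 without DW16 mouse 8, 19 without mouse 9, and 0 or 1 without any other), 0 to 3 for EW16 against EC16 (3 without EW16 mouse 4, 1 without another EW16 mouse and 0 without any EC16 mouse), 1 to 16 for DW16 against DW8 (16 and 12 without DW16 mice 8 and 9, 4 or 5 without another DW16 mouse and 1 to 3 without a DW8 mouse), 0 to 6 for EW16 against EW8 (6 without EW16 mouse 4 and 0 without any other) and 0 to 8 for the diet difference in D mice (8, 6 and 1 without DW16 mice 8 and 9 and DC16 mouse 4). For DW8 against DC8 the 6 came without DC8 mouse 1, 2 remained in number without DC8 mouse 3 or 6, 1 without DW8 mouse 4 or 5, and 0 without any other. Nearly every mouse thus decided some call at this threshold. Calls over all probe sets moved too. For DW16 against DC16 they numbered 1545 with all mice, 6041 without DW16 mouse 8 and 5243 without mouse 9. Without any other mouse they numbered 51 to 708. These shifts therefore cannot be read as particular to the members. The other 5 comparisons gave 0 under all settings run.

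Probe sets of 1 gene reversed 8 of these differences: Scd2 (1415824_at, DW16 against DC16) against -0.57 and -0.59 for the other 2, the 3 Elovl1 probe sets (DW16 against DW8) against -0.15, Thrsp (1444166_at, DW16 against DW8) against -0.14, and Agpat3 (EW16 against EW8) against 0.024 and 0.00071. None of the called differences turned its sign with quantile normalization, the block or without the narrow-range arrays. Of the 20 pairs, 10 passed after quantile normalization, 12 with Pearson correlation and 20 with all 45 mice, and 8 to 15 passed without 1 mouse. They numbered 3 without the DC8, 7 without the EW16 and 7 without the EC16 mice.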
